A study of Mus musculus with 18 samples.

Results

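Star and the enzymes that turn cholesterol into progesterone, androgen and oestrogen were followed in cultured mouse follicles through every probe set that the platform annotation assigns to one of their symbols alone. The rule names 10 genes, Star, Cyp11a1, Hsd3b1, Cyp17a1, Cyp19a1, Hsd17b1, Akr1c18, Srd5a1, Fdx1 and Fdxr. It found 11 probe sets for 7 of them, out of 45037 probe sets other than controls and 18193 genes with a probe set of 1 symbol. Cyp19a1, Srd5a1 and Fdxr were not analysed here. Star had 3 probe sets, Cyp11a1 had 3, and Hsd3b1, Cyp17a1, Hsd17b1, Akr1c18 and Fdx1 had 1 each.

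The study asked what anti-Müllerian hormone (AMH) does to gene expression in preantral and small antral follicles. The follicles came from ovaries of female C57BL/6Ntac mice aged 6 to 8 weeks (the series' design text spells the strain C57BL/6Tac). All cultures, the controls included, received 80 IU/L FSH and 10 IU/L LH, so every AMH comparison was made in gonadotropin-treated follicles. The 6 groups of 3 arrays were vehicle, AMH at 50 ng/mL and AMH at 200 ng/mL (recombinant protein), each after 12 h or 24 h of culture. For each replicate the follicles of 7 mice were mixed and then shared out among vehicle and both AMH doses, giving 3 pools at 12 h and 3 pools at 24 h. A replicate is therefore a pool of animals, and the whole follicle with its granulosa cells, oocyte and attached theca cells was the sample.

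Steroid synthesis starts when Star, the steroidogenic acute regulatory protein, moves cholesterol to the inner mitochondrial membrane. There Cyp11a1 cleaves the side chain to make pregnenolone, with electrons passed on by ferredoxin reductase (Fdxr) and ferredoxin (Fdx1), and Hsd3b1 converts pregnenolone to progesterone. Theca cells carry the androgen step through Cyp17a1, granulosa cells turn androgen into oestradiol through aromatase (Cyp19a1) and Hsd17b1, and Akr1c18 and Srd5a1 reduce progesterone and androgens further. AMH, a hormone of granulosa cells that signals through Amhr2, is known for restraining follicle recruitment and the response to FSH.

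The genes lie apart in the genome (RefSeq annotation of GRCm38.p6). Star spans chr8:25808474-25815982, Cyp11a1 chr9:57998024-58027031, Hsd3b1 chr3:98842356-98859794 and Fdx1 chr9:51943023-51963602. Cyp17a1 spans chr19:46667165-46673000, Hsd17b1 chr11:101077968-101081188 and Akr1c18 chr13:4132615-4150646. The RefSeq tables held a promoter for 4 of the 7 genes measured, and the 250 bases before each start are shown here for Cyp11a1, Hsd3b1 and Fdx1, the genes of the progesterone arm with an entry, and for Akr1c18, which had the lowest p with AMH. Capitals mark matches to CAAGGNNA, a loose form of the site bound by the NR5A receptors (Nr5a1, or steroidogenic factor 1, and Nr5a2), searched on both strands. Promoters of Star, Cyp17a1 and Hsd17b1 are not shown.

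Hsd3b1, chr3:98859795-98860044, minus strand: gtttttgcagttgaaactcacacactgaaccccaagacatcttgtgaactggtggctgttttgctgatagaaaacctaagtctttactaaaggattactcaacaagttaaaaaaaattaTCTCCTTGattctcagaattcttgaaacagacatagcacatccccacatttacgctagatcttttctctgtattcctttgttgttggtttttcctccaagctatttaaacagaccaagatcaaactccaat
Fdx1, chr9:51963603-51963852, minus strand: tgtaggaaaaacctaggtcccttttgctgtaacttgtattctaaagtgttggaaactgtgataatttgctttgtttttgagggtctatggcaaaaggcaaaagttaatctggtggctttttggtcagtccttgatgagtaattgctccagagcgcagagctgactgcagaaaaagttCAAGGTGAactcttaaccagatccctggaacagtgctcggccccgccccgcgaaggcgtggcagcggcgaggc
Cyp11a1, upstream start, chr9:57997774-57998023, plus strand: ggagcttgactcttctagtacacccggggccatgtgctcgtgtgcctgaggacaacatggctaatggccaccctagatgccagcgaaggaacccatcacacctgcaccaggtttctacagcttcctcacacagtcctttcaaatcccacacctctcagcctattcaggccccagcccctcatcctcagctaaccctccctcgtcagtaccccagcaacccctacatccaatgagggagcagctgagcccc
Cyp11a1, downstream start, chr9:58014702-58014951, plus strand: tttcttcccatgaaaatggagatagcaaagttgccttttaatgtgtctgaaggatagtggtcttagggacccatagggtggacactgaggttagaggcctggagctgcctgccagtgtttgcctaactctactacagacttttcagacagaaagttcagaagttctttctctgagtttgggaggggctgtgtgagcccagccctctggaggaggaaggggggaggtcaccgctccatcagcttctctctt
Akr1c18, chr13:4150647-4150896, minus strand: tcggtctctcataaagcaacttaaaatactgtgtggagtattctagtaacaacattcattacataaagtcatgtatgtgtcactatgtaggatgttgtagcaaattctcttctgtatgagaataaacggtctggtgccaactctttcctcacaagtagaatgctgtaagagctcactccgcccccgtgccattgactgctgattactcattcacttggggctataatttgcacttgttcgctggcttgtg

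Fdx1 held the letters CAAGGTGA on the strand of the gene, 73 to 66 bases before its start. Hsd3b1 held CAAGGAGA on the opposite strand, 131 to 124 bases before its start. The loose site occurred in 5072 of 32851 mouse promoters of this length (15.4%), the full site CAAGGTCA in 1.33% and the cAMP response element TGACGTCA in 1.55%. These windows held neither of the last 2 motifs, and both Cyp11a1 starts and Akr1c18 held no match to the loose site. The motifs were chosen after the sequences were read, they overlap (each CAAGGTCA is also a CAAGGNNA), and a match is a run of letters and not a shown binding site.

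Signals are the authors' MAS5 values on a linear scale, where each array was scaled to a 2% trimmed mean of 150. Differences below are in log2(signal + 16), which understates changes of dim probe sets. Of the 11 probe sets, 10 passed the filter (mean above the 50th percentile of all probe sets) and represent all 7 genes. The dimmest, Cyp11a1 1457604_x_at, lay between 0.93 and 8.73 on the 17 arrays and was not tested. One array, AMH 50 at 12 h of replicate 3, is given apart because its correlation with the others across probe sets was 0.604 to 0.624, against 0.904 to 0.992 among the other 17. The AMH 200 array of the same pool had the next lowest median correlation, 0.919. Summed over their lists, granulosa and theca markers gave signal on all 17 arrays. The sums were 5180 to 13317 for 11 granulosa markers and 2918 to 9551 for 12 theca and interstitial markers. The replicate 3 pool of 12 h stood apart in its oocyte markers, which summed to 248 in vehicle and 316 with AMH 200 (277 on the array given apart), against 1781 to 7993 on the other arrays of 12 h and 598 or more at 24 h. Zp3, a protein of the egg coat, read 41.9 and 8.22 on these vehicle and AMH 200 arrays, and Bmp15, a growth factor of the oocyte, read 4.65 and 0.44. The vehicle array of this pool also had the highest endothelial sum, 3900, and its AMH 200 array the highest sum of surface epithelium markers, 6124. Its granulosa sums, 5180 in vehicle and 5190 with AMH 200, were below the 5745 to 8628 of the other 12 h pools. Its theca and interstitial sums on these arrays, 8278 and 5610, were above the 2918 to 5193 of those pools. Values of 12 h are therefore also given without this pool where it moves them, and the part of its composition in them was not tested. Insl3 and Lhcgr, defining theca genes, were not analysed here. None of the tested markers was listed at 0, but single values went down to 1.48 among granulosa and 0.44 among oocyte markers. The lowest were 1.30 among macrophage and leukocyte and 37.8 among tested theca and interstitial markers. Adrenal cortex markers summed to at most 263 on any of the 17. In such bulk samples fewer cells of a type and less RNA per cell cannot be told apart.

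**Figure D1:**
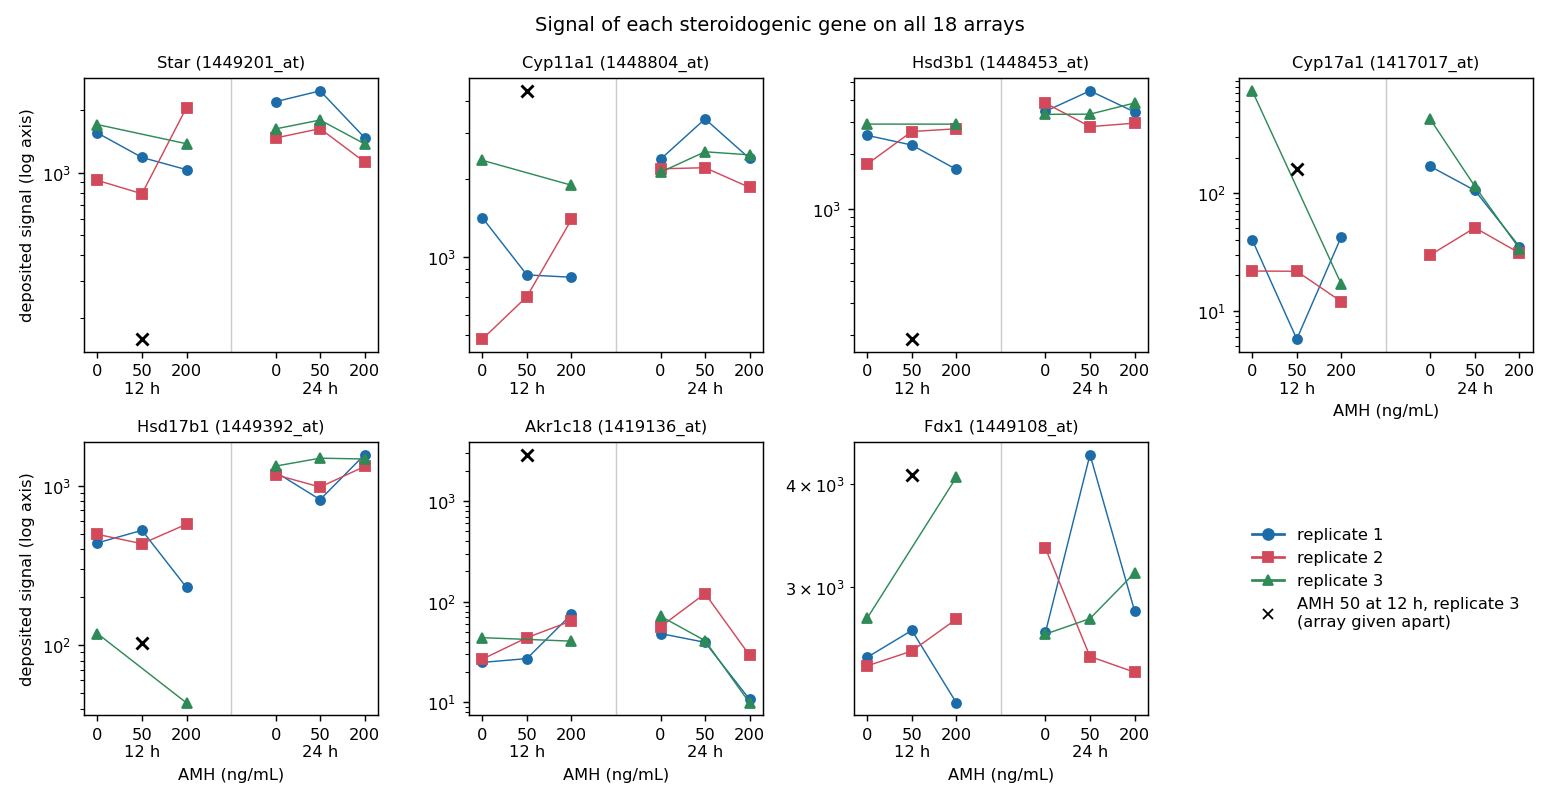
Deposited signal (log axis) of the probe set that stands for each of the 7 genes, by AMH dose in ng/mL at 12 h and at 24 h. Lines join the arrays of a pool (blue circles replicate 1, red squares replicate 2, green triangles replicate 3), and the cross is the AMH 50 array given apart. Hsd17b1 sits between 43.4 and 573 on the 8 other arrays of 12 h and between 817 and 1564 on the 9 of 24 h, while Cyp17a1 scatters from 5.74 to 737.

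Between the times of culture in vehicle, Hsd17b1, both tested Cyp11a1 probe sets, Hsd3b1 and Akr1c18 all had higher means at 24 h than at 12 h, by 0.58 to 1.99 on the log2 scale. All 10 tested probe sets pointed the same way, with a median difference of 0.59, against a median of 0.013 over all probe sets tested, 51.6% of which were higher. With limma, 0 of the 10 passed an adjusted p of 0.05, against 1.09% of all probe sets (246 of 22518, with 0.751% higher), and 4 had an unadjusted p under 0.05, against 18.5% of all. The 12 h and 24 h cultures came from separate pools and experiments, and the submitters describe samples as comparable within an experiment, so time and experiment cannot be told apart.

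Among the oestrogen steps of granulosa cells, Hsd17b1, which reduces oestrone to oestradiol, had the largest time difference of the members. Its signals in vehicle were 437, 495 and 118 in replicates 1 to 3 at 12 h and 1216, 1169 and 1325 at 24 h. Every 24 h array was above every 12 h array, and replicate 3 was the lowest of the 12 h arrays. That array also had the lowest granulosa marker sum of the vehicle arrays, 5180, and the part of this in the Hsd17b1 values was not tested. The log2 difference was 1.99 (SE 0.44, 95% interval 0.98 to 3.00), a 3.98-fold higher level, with an adjusted p of 0.0714 from limma. With the replicate number as a block the adjusted p was 0.0486 for the same difference. Without vehicle replicate 3 of 12 h the difference was 1.38 with an adjusted p of 0.00696, and with array weights it was 1.73 with an adjusted p of 0.0265. These were the 3 of 16 alternative settings in which Hsd17b1 passed, and in the others the adjusted p reached 0.285, without replicate 1 of 24 h. With the AMH cultures included, the 8 arrays of 12 h reached at most 573 and the 9 arrays of 24 h were at least 817. The AMH arrays come from the same pools as the vehicle arrays, so they are not further replicates of a time.

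Cyp11a1, the side-chain cleavage enzyme, was measured by a bright and a dim probe set. The bright one (1448804_at) gave 1418, 483 and 2361 in vehicle at 12 h and 2383, 2189.5 and 2124 at 24 h. Its groups overlapped through replicate 3 of 12 h, and the difference was 0.91 (SE 0.47, adjusted p = 0.346). The dim one (1439947_at) gave 64.6, 54.8 and 35.0 at 12 h and 152, 114 and 91.8 at 24 h, with no overlap. Its difference was 1.00 (SE 0.26, 2.01-fold), with an adjusted p of 0.0988 in limma and of 0.0475 with the replicate number as a block. Without vehicle replicate 3 of 12 h, the array with the lowest oocyte marker sum, the bright probe set differed by 1.41 (adjusted p = 0.078) and the dim one by 0.82 (adjusted p = 0.132). Over all doses, on arrays of the same pools, the dim probe set lay between 10.4 and 64.6 at 12 h and between 71.9 and 194 at 24 h. The ranges of the bright one, 483 to 2361 and 1856 to 3409, overlapped.

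Hsd3b1, which completes progesterone, gave 2541, 1766 and 2934 in vehicle at 12 h and 3455, 3833 and 3322 at 24 h. The groups did not overlap, and the 24 h level was 1.49-fold higher (0.58, SE 0.18, adjusted p = 0.154). Akr1c18, which reduces progesterone to an inactive metabolite, was dim, with 25.0, 26.9 and 44.0 at 12 h and 48.3, 56.4 and 71.9 at 24 h. These groups did not overlap either (0.65, SE 0.24, adjusted p = 0.197). Without vehicle replicate 3 of 12 h the difference was 0.73 for Hsd3b1 and 0.82 for Akr1c18. In all, the dim Cyp11a1 probe set, Hsd3b1, Hsd17b1 and Akr1c18 were higher without overlap, 4 of 10, against 13.5% of all probe sets.

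Star, Fdx1 and Cyp17a1 overlapped between the times. Star through its brightest probe set (1449201_at) gave 1557, 919 and 1708 at 12 h and 2203, 1472 and 1628 at 24 h, a difference of 0.37 (SE 0.25, adjusted p = 0.479). Its other probe sets differed by 0.28 and 0.61, and in all 3 the 12 h array of replicate 2 was the lowest. Fdx1 read 2472, 2414 and 2756 at 12 h and 2647, 3343 and 2635 at 24 h (0.17, SE 0.13, adjusted p = 0.558). The Cyp17a1 difference had the largest error of the members (0.40, SE 1.15), and without vehicle replicate 3 of 12 h that difference was 1.75.

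**Figure D2:**
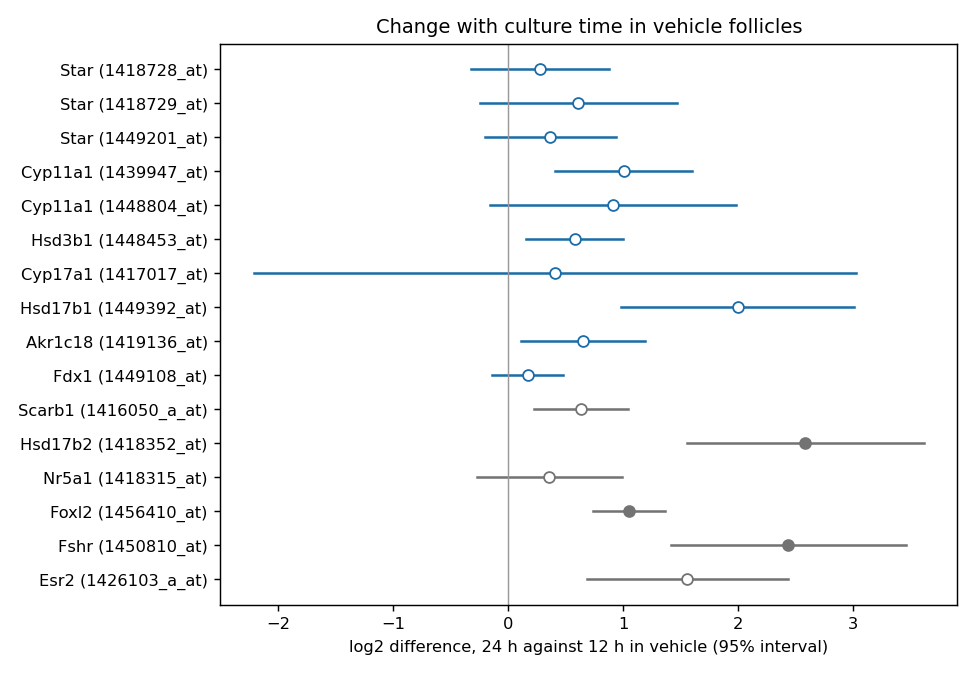
Log2 difference between the vehicle arrays of 24 h and 12 h (3 against 3), with lines for the 95% interval from limma. Blue points are the 10 probe sets of the steroidogenic genes, grey points are 6 other genes of the pathway, and filled points passed an adjusted p of 0.05, as Hsd17b2, Fshr and Foxl2 among those drawn did.

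The same comparison held 44 other pathway genes that were tested, of 63 listed, and 3 of them rose while 0 fell. Hsd17b2, which oxidises oestradiol back to oestrone, rose from 6.59, 33.3 and 25.9 to 95.7, 341 and 235 (2.58, SE 0.45, adjusted p = 0.0448). Foxl2, a transcription factor of granulosa cells, rose from 477, 451 and 431 to 1004, 862 and 1001 (1.05, SE 0.14, adjusted p = 0.02). Fshr, the receptor for FSH, rose from 37.4, 7.19 and 2.86 to 213, 78.0 and 155 (2.43, adjusted p = 0.0489). These calls rest on few arrays: leaving out replicate 2 of 12 h or any vehicle array of 24 h took the adjusted p of each above 0.05, with Foxl2 at 0.0612 to 0.155, Hsd17b2 at 0.0855 to 0.154 and Fshr at 0.0962 to 0.232, and leaving out replicate 1 of 12 h took Hsd17b2 to 0.0663. With all arrays kept, Hsd17b2 and Fshr also missed the threshold without the variance trend (0.0512 and 0.056), without a filter (0.0827 and 0.0899) and with 1 added (0.0587 and 0.0697), as Hsd17b2 did after median centring (0.0541). Foxl2 passed in 12 of 16 alternative settings, Fshr in 8 of 15 and Hsd17b2 in 6 of 15. Scarb1, the HDL receptor that delivers cholesterol, gave 1058, 912 and 1405 at 12 h and 1966, 1622 and 1607 at 24 h (0.63, adjusted p = 0.12), and all 8 cholesterol delivery genes tested were higher at 24 h, with 0 past the threshold and 2 at an unadjusted p under 0.05. Nr5a1, the regulator named above, differed by 0.35 (adjusted p = 0.543). Granulosa markers moved with time: 9 of 10 were higher at 24 h (median 0.89), Foxl2 and Fshr past the threshold, and their sums were 5180 to 8628 at 12 h and 11096 to 11948 at 24 h.

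Markers of other cell types moved in the same vehicle comparison. Of the surface epithelium markers 6 of 7 were higher at 24 h (median 0.98), with sums of 515 to 1660 at 12 h and 1640 to 3579 at 24 h. Upk3b, a membrane protein of that epithelium, rose from 46.0, 201 and 127 to 560.0, 1096 and 564 (2.53, adjusted p = 0.0457 from limma). Csf1r, the macrophage colony-stimulating factor receptor, fell from 526, 1077 and 528 to 86.4, 90.3 and 246 (-2.27, adjusted p = 0.0465 from limma), while 5 of the 7 macrophage and leukocyte markers were higher at 24 h. Each call held in 7 of 16 alternative settings, and leaving out replicate 2 of 12 h or any vehicle array of 24 h ended them (Upk3b at 0.0626 to 0.185, Csf1r at 0.0894 to 0.232), as leaving out replicate 1 of 12 h did for Csf1r (0.0589). Endothelial markers were lower in 6 of 6 (median -0.83, 0 called), with sums of 1054 to 3900 at 12 h and 621 to 1465 at 24 h. Oocyte markers were higher in 8 of 10 (median 0.15, 0 called), with vehicle replicate 3 of 12 h far below the other arrays. Their sums were 3995, 7993 and 248 in replicates 1 to 3 at 12 h and 1158, 5744 and 2687 at 24 h. Zp3 in replicates 1 and 2 of 12 h read 846 and 1786, against 158, 1172 and 625 at 24 h. A rise of oocyte RNA with time is therefore not shown. The part of these cell types, granulosa included, in the time differences of the members was not tested.

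Against vehicle and within pools, no dose of AMH moved any of the 10 probe sets past an adjusted p of 0.05 in limma at either time. In each of these comparisons 0 of all 22518 probe sets (0%) were called. Both AMH doses share the vehicle arrays of their pool, so the 2 comparisons of a time are not independent.

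At 24 h with AMH 50, Star and Cyp11a1 were slightly higher than vehicle in every pool. The brightest Star probe set gave 2203, 1472 and 1628 in vehicle and 2485, 1633 and 1796 with AMH 50, and the pools differed by 0.17, 0.15 and 0.14. The fitted difference was 0.15 (SE 0.26, 95% interval -0.40 to 0.71, adjusted p = 1), and the groups overlapped. The other Star probe sets differed by 0.35 and 0.22, and those of Cyp11a1 by 0.26 (bright) and 0.34 (dim). These 5 probe sets were higher in 3 of 3 pools, against 10.8% of all probe sets. Hsd3b1 (-0.018), Akr1c18 (0.027), Fdx1 (0.11), Hsd17b1 (-0.22) and Cyp17a1 (-0.60) were mixed between pools. None of the 10 had an unadjusted p under 0.05, against 2.69% of all, and none of the groups was free of overlap. Cell type markers also moved here, with 0 called. Theca and interstitial markers were higher in 10 of 10 (median 0.44). Oocyte markers were lower in 10 of 10 (median -1.01) and granulosa markers in 9 of 10 (median -0.17). Macrophage and leukocyte markers (median -0.87) and surface epithelium markers (median -0.79) were lower in 7 of 7 each. Their part in the values of the members was not tested.

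AMH 200 at 24 h gave the opposite sign for Star. With AMH 200 the brightest probe set read 1476, 1127 and 1379, and the pools differed from vehicle by -0.57, -0.38 and -0.24. The fitted difference was -0.40 (SE 0.26, 95% interval -0.95 to 0.16, adjusted p = 1). The second probe set (1418728_at) read 1144, 696 and 970.1 in vehicle, 1356, 1081 and 1112 with AMH 50 and 739, 671 and 735 with AMH 200. The third (1418729_at) read 1203, 715 and 688, 1380.4, 817 and 834 and 669.9, 641 and 595 in the same order of groups, and with AMH 200 all its arrays were below all vehicle arrays. All 3 probe sets were lower with AMH 200 in 3 of 3 pools, by -0.36, -0.40 and -0.40.

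The 2 doses were therefore farther from each other than from vehicle in Star. AMH 200 minus AMH 50 at 24 h was -0.71 (SE 0.33), -0.62 (SE 0.26) and -0.55 (SE 0.26) in probe sets 1418728_at, 1418729_at and 1449201_at, each lower in 3 of 3 pools and with an adjusted p of 0.999 from limma. In 1418728_at the AMH 50 arrays read 1081 to 1356 and the AMH 200 arrays 671 to 739, without overlap, as also held in 1418729_at between the lowest AMH 50 array at 817 and the highest AMH 200 array at 669.9. Over the 10 probe sets, 9 were lower with AMH 200 than with AMH 50 (median -0.54, against 0.020 over all), and 5 were lower without overlap, the 3 of Star, Cyp17a1 and Akr1c18, against 4.17% of all. Akr1c18 and Star 1418729_at had an unadjusted p under 0.05, 2 of 10, against 4.16% of all. Theca and interstitial markers moved with this difference: 10 of 10 tested were lower with AMH 200 than with AMH 50 (median -0.58, 0 called), and their sums were 4464 to 9551 with AMH 50, 3651 to 5236 with AMH 200 and 4431 to 6962 in vehicle. Markers of other cell types moved in the same comparison. Oocyte markers were higher with AMH 200 than with AMH 50 in 10 of 10 (median 1.02, 0 called), and granulosa markers in 7 of 10 (median 0.24, 0 called). The part of these cell types in the Star values was not tested.

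**Figure D3:**
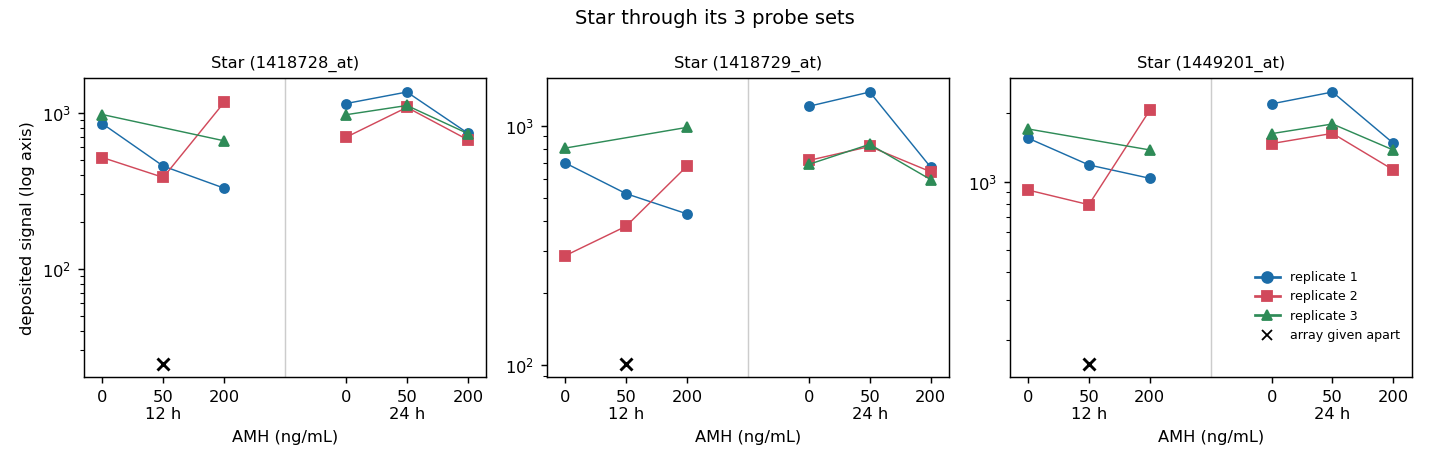
Deposited signal (log axis) of Star through its 3 probe sets by AMH dose in ng/mL at 12 h and 24 h, with lines joining the arrays of a pool and a cross for the array given apart. At 24 h every pool goes up from vehicle to AMH 50 and down to AMH 200, whereas at 12 h replicate 2 goes up from vehicle to AMH 200 and replicate 1 goes down.

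The rest of the progesterone arm was closer to level at 24 h with AMH 200. Bright Cyp11a1 read 2383, 2189.5 and 2124 in vehicle, 3409, 2211 and 2547 with AMH 50 and 2399.6, 1856 and 2478 with AMH 200, and the difference of AMH 200 from vehicle was -0.0019 (SE 0.30, 95% interval -0.65 to 0.65). Dim Cyp11a1 read 173, 194 and 106 with AMH 50 and 122, 71.9 and 116 with AMH 200, a difference from vehicle of 0.34 and -0.18. Hsd3b1 read 4479, 2841 and 3329.8 with AMH 50 and 3425, 2970.1 and 3837 with AMH 200, and its 95% interval for AMH 200 against vehicle ran from -0.52 to 0.40. Fdx1, the electron donor of Cyp11a1, read 4333, 2477 and 2751 with AMH 50 and 2812, 2372 and 3121 with AMH 200, with an interval of -0.50 to 0.39. In none of these did the 3 pools share a direction with AMH 200. These intervals leave room for differences of about the size seen in Star.

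Akr1c18 had the largest difference from vehicle at 24 h, relative to its error, among the members. Its signals were 48.3, 56.4 and 71.9 in vehicle, 39.5, 121 and 41.1 with AMH 50 and 10.7, 29.4 and 9.89 with AMH 200. All 3 AMH 200 arrays lay below all other arrays of 24 h, while AMH 50 was high in replicate 2 alone. The pools differed from vehicle by -1.27, -0.67 and -1.76, and the fitted difference for AMH 200 was -1.24 (SE 0.30, 95% interval -1.88 to -0.59), a level 0.425 times that of vehicle on the log2(signal + 16) scale. The unadjusted p was 0.00117 and the adjusted p from limma was 1. With array weights the difference was -1.35 with an adjusted p of 0.0368 from limma, a setting in which 0.0355% of all probe sets were called. Those weights did not reach the convergence tolerance, and the largest, 26.3, fell on AMH 50 at 24 h of replicate 3. The size depends on the constant added, from -1.91 with 1 to -0.71 with 50. With AMH 200 at 24 h, Akr1c18 and the third Star probe set were lower than vehicle without overlap, against 2.94% of all probe sets (and 4.49% higher, 7.43% in either direction), and 2 of 10 had an unadjusted p under 0.05 (Akr1c18 and Cyp17a1), against 1.68%. Macrophage and leukocyte markers were lower in the same arrays (7 of 7, median -0.97, sums of 969 to 2280 in vehicle and 399 to 1187 with AMH 200), as were ovarian surface epithelium markers (7 of 7, median -0.72). Both lists were also lower than vehicle with AMH 50 at 24 h (7 of 7 each, medians -0.87 and -0.79), where Akr1c18 differed by 0.027. The part of these cell types in the Akr1c18 value was not tested.

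Hsd17b1 was the member that was higher with AMH 200 at 24 h. It read 1216, 1169 and 1325 in vehicle, 817, 979.9 and 1486 with AMH 50 and 1564, 1319 and 1468 with AMH 200. The pools differed from vehicle by 0.36, 0.17 and 0.15, higher in 3 of 3, with a fitted difference of 0.23 (SE 0.26, adjusted p = 1). The other 9 probe sets were lower than vehicle in the fit, against 46.5% of all, with a median over the 10 of -0.27 against 0.013.

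Cyp17a1, the hydroxylase and lyase that makes androgen and the marker of the theca step, was the most variable member. In vehicle it read 40.0, 21.7 and 737 at 12 h and 168, 29.8 and 421 at 24 h, so replicate 3 was highest at both times. With AMH 50 it read 5.74 and 21.6 in replicates 1 and 2 at 12 h and 105, 50.7 and 114 at 24 h. With AMH 200 it read 42.6, 12.0 and 16.8 at 12 h and 35.0, 30.9 and 33.6 at 24 h, the narrowest spread of the groups of 24 h.

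Cyp17a1 was lower with AMH 200 in 4 of 6 pools, and the size came from pools that were high in vehicle. At 24 h the pools differed by -1.85, 0.034 and -3.14 (fitted -1.65, SE 0.74, adjusted p = 1), and leaving out a pool of 24 h gave -2.50 to -0.91. At 12 h the pools differed by 0.065, -0.43 and -4.52 (fitted -1.63, SE 0.74, adjusted p = 0.438), and without replicate 3 the difference was -0.18. Averaged over the times it was -1.64 (SE 0.52, adjusted p = 0.951), and -0.92 without replicate 3 of 12 h. For AMH 50 the average was -1.01, lower in 4 of 5 pools. Of the 10 probe sets, 1 had an unadjusted p under 0.05 for the AMH 200 average, against 3.39% of all, and 0 for the AMH 50 average, against 4.71%.

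The theca and interstitial markers stood high on the vehicle arrays of replicate 3, where Cyp17a1 was highest. Their sum was 8278 at 12 h and 6962 at 24 h, against 3266 to 4450 on the other 4 vehicle arrays. Among those 4, replicates 1 and 2 of 24 h had Cyp17a1 at 168 and 29.8 with marker sums of 4431 and 4450. In vehicle, replicate 3 also had the highest endothelial sum of each time (3900 and 1465), and the highest macrophage and leukocyte sum (1880 and 2280). With AMH 200 at 24 h the theca marker sums were 3651, 5236 and 5025 by replicate, against 4431, 4450 and 6962 in vehicle. Each moved in the same direction as Cyp17a1 in its pool, though Cyp17a1 barely moved in replicate 2. At 12 h the sums were 4022, 5193 and 5610 with AMH 200, against 3551, 3266 and 8278 in vehicle. Only replicate 2 parted there, with Cyp17a1 at 12.0 against 21.7. With AMH 50 at 24 h the sums were 9551, 4464 and 7283, with Cyp17a1 at 105, 50.7 and 114. There the sum was higher and Cyp17a1 lower than vehicle in replicates 1 and 3. The part of the RNA content of theca or these other cells in the Cyp17a1 values was not tested.

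**Figure D4:**
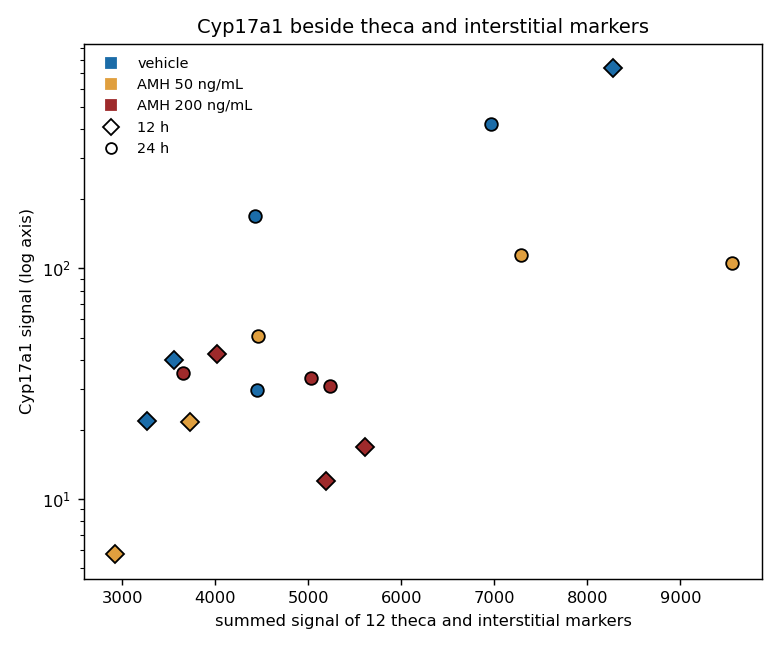
Cyp17a1 signal (log axis) against the summed signal of 12 theca and interstitial markers on the 17 arrays, with diamonds for 12 h, circles for 24 h and colours for the AMH dose. The vehicle arrays of replicate 3, at 737 and 421, are the highest in Cyp17a1, and the array with the largest marker sum, 9551, has Cyp17a1 at 105.

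At 12 h the pools went different ways. AMH 50 was compared over replicates 1 and 2 only, in which the dim Cyp11a1 probe set read 39.5 and 29.8 against 64.6, 54.8 and 35.0 in the 3 vehicle arrays. Its pools differed from vehicle by -0.54 and -0.63. The fitted difference was -0.72 (SE 0.30, adjusted p = 0.867), and it was the 1 probe set of the members with an unadjusted p under 0.05, against 5.69% of all. Star read 1186 and 792 with AMH 50 against 1557, 919 and 1708 in vehicle, a difference of -0.40 (SE 0.30). Probe set 1418728_at of Star read 455 and 385, below all vehicle arrays at 850.3, 516 and 973, and Cyp17a1 was the other member without overlap, against 6.84% of all lower. The Cyp17a1 pools differed by -1.36 and -0.0034, against a fitted -1.41 (SE 0.87) and -0.68 without replicate 3. A fitted value of this comparison can lie outside its pool differences, since the vehicle and AMH 200 arrays of replicate 3 enter the fit while its AMH 50 array does not. Bright Cyp11a1 (854 and 705), Hsd3b1 (2248 and 2670.2), Hsd17b1 (524 and 432), Akr1c18 (27.2 and 44.0) and Fdx1 (2663 and 2515) overlapped vehicle, with differences of -0.21, 0.21, -0.11, 0.10 and 0.18. Cell type markers also moved with AMH 50, with 0 called. Oocyte markers were lower in 10 of 10 (median -0.92), theca and interstitial markers in 7 of 10 (median -0.31) and granulosa markers in 6 of 10 (median -0.086). Macrophage and leukocyte markers were lower in 6 of 7, endothelial markers in 5 of 6, and surface epithelium markers higher in 7 of 7 (median 0.44). Their part in the values of the members was not tested.

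AMH 200 at 12 h split the progesterone arm by pool. Star read 1035, 2065 and 1380.5, and its pools differed from vehicle by -0.58, 1.15 and -0.30. Bright Cyp11a1 read 837, 1397 and 1893, with differences of -0.75, 1.50 and -0.32, and Hsd3b1 read 1649, 2764 and 2933, with differences of -0.62, 0.64 and -0.00046. In all 3 genes replicate 2 was higher than its vehicle array, which was the lowest of the 12 h vehicle arrays, and replicate 1 was lower. The fitted differences were 0.089 (SE 0.26), 0.14 (SE 0.30) and 0.0075 (SE 0.21). Fdx1 read 2178, 2748 and 4069, a difference of 0.19, and dim Cyp11a1 read 55.0, 50.5 and 10.4, lower than vehicle in 3 of 3 pools with a difference of -0.41. Without replicate 3 the differences were 0.29 for Star (1449201_at), 0.38 for bright Cyp11a1 and -0.14 for the dim one. The other Star probe sets read 329, 1165 and 660.3 (1418728_at) and 427, 676 and 982 (1418729_at).

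Hsd17b1 and Akr1c18 had unadjusted p values under 0.05 with AMH 200 at 12 h, as Cyp17a1 had, 3 of 10 against 11.4% of all. Hsd17b1 read 229.7, 573 and 43.4 against 437, 495 and 118 in vehicle, and its pools differed by -0.88, 0.21 and -1.17. The fitted difference was -0.62 (SE 0.26, adjusted p = 0.432), it was -1.03 with an adjusted p of 0.0468 without replicate 2 (0.999% of all called) and -0.34 without replicate 3. Akr1c18 read 74.9, 64.6 and 40.6 against 25.0, 26.9 and 44.0, with pools at 1.15, 0.91 and -0.083. Its fitted difference was 0.66 (SE 0.30, adjusted p = 0.438), and 1.03 without replicate 3. No member was free of overlap in this comparison, against 2.58% of all lower and 1.18% higher. Cell type markers moved here too, with 0 called. Granulosa markers were lower in 8 of 10 (median -0.21), with sums of 5745, 8052 and 5190 against 7708, 8628 and 5180 in vehicle. Endothelial markers were lower in 6 of 6 (median -0.55) and surface epithelium markers higher in 7 of 7 (median 0.62). Theca and oocyte markers (6 of 10 higher each) and macrophage markers (4 of 7 lower) were mixed. Their part in the values of the members was not tested. Between the doses at 12 h, 0 of 10 members passed the threshold in limma and 0 had an unadjusted p under 0.05, against 5.61% of all.

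**Figure D5:**
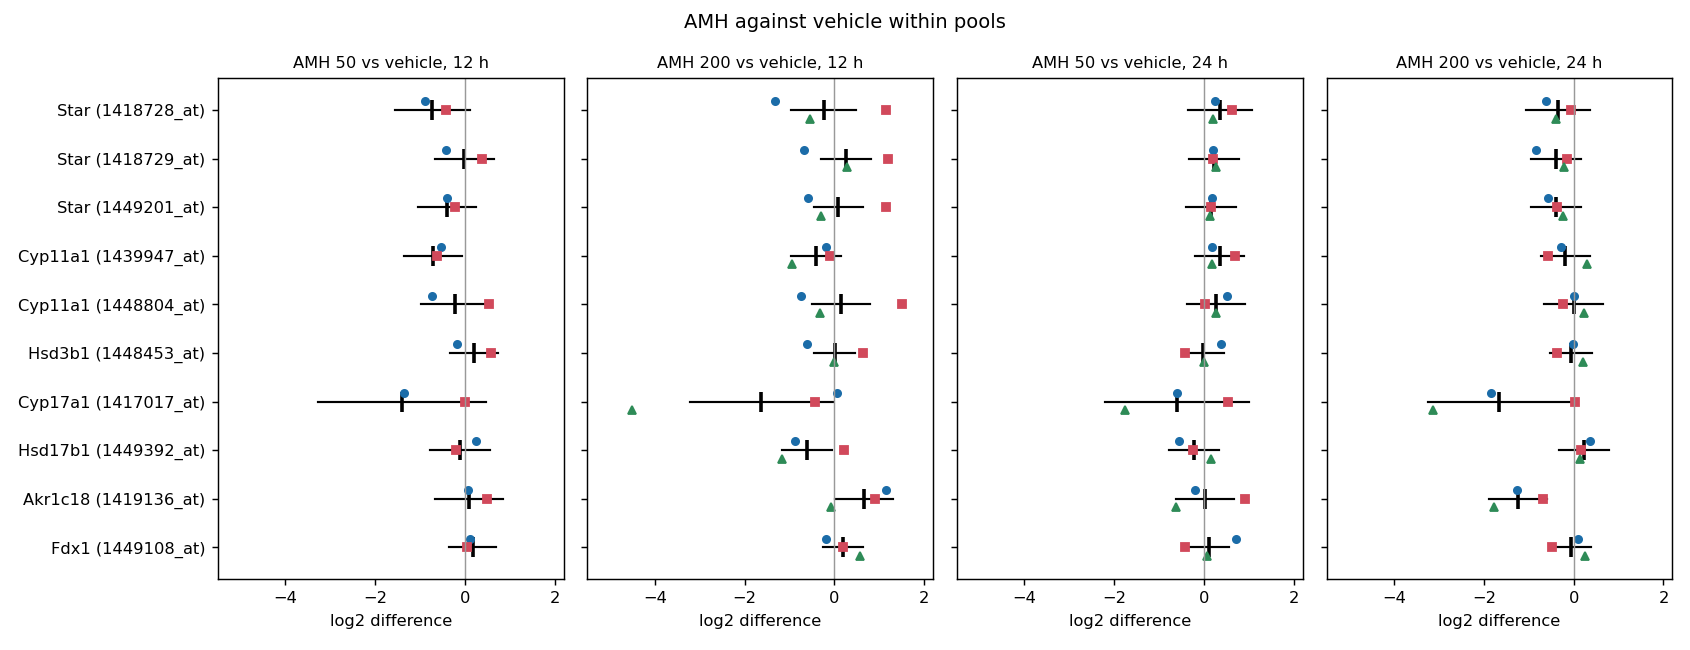
Log2 difference from the vehicle array of the same pool for the 10 probe sets, in 4 panels by dose and time. Coloured points are single pools (circles replicate 1, squares replicate 2, triangles replicate 3), the black bar is the limma estimate and the line its 95% interval. At 24 h the Star pools lie above 0 with AMH 50 and below 0 with AMH 200, and the Cyp17a1 pools with AMH 200 reach -4.52 at 12 h.

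The dose effects at the 2 times were compared as a difference of differences. For AMH 200, Akr1c18 was higher than vehicle at 12 h and lower at 24 h, and the difference between the times was -1.89 (SE 0.42, adjusted p = 0.627). Hsd17b1 went the other way (0.84, SE 0.37, adjusted p = 0.627). These were the 2 of 10 with an unadjusted p under 0.05, against 7.19% of all, and 0 passed the adjusted threshold. For AMH 50, the dim Cyp11a1 probe set (1.06, SE 0.39, adjusted p = 0.999) was the 1 of 10, against 3.24% of all. Star 1418728_at differed by 1.07 (SE 0.51, adjusted p = 0.999).

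Of the 44 other genes of the pathway tested, 0 passed the threshold in limma in any dose comparison. At 24 h an unadjusted p under 0.05 was found for 4 with AMH 50 (against 2.69% of all probe sets) and 2 with AMH 200 (1.68%). Between the doses of 24 h it was found for 5 (4.16%). At 12 h the counts were 4 of 44 with AMH 50 (5.69% of all), 3 with AMH 200 (11.4%) and 2 between the doses (5.61%). At 24 h the smallest unadjusted p values with AMH 50 belonged to Hsd17b2 (-1.08, lower in 3 of 3 pools) and Wt1 (-0.71), a transcription factor of granulosa and surface epithelial cells. With AMH 200 they belonged to Hsd17b2 (-0.69, lower in 3 of 3) and Stard5 (-0.65), a cholesterol-binding relative of Star, which was also lower with AMH 200 than with AMH 50 (0.499 times its level, lower in 3 of 3). Esr2, the oestrogen receptor of granulosa cells, was higher with AMH 200 than with AMH 50 (1.00, 3 of 3 pools). At 12 h they belonged to Nr4a1 (-0.73, 2 of 2 pools lower) and Wt1 (0.74) for AMH 50, and to Wt1 (0.76) and Cyb5b (-0.55) for AMH 200. Wt1 read 193, 187 and 479 with AMH 200 against 147, 172 and 126 in vehicle, so replicate 3 had most of the difference. On that AMH 200 array the surface epithelium markers summed to 6124, against 1660 in the vehicle array of its pool, with Krt19, a keratin, at 3229, and their part in the Wt1 value was not tested. Nr5a1 with AMH 200 at 24 h was -0.23, lower in 3 of 3 pools. The adjusted p values of these ran from 0.432 to 1.

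Across the 17 arrays, with pool means removed, the 3 Star probe sets correlated with each other at 0.813 to 0.939, and the closest pairs of genes belonged to the progesterone arm. Star and Cyp11a1 correlated at 0.821, Cyp11a1 and Hsd3b1 at 0.719, and Hsd3b1 and Fdx1 at 0.643, while Cyp11a1 and Fdx1 stood at 0.327. Star and Hsd3b1 stood at 0.437, below Star and Akr1c18 at 0.454. Star and Fdx1 stood at 0.241, and Star and Hsd17b1 at 0.115. Cyp17a1 went with Akr1c18 (0.509) and against Fdx1 (-0.526), and Hsd17b1 went against Akr1c18 (-0.467). These values describe 17 arrays from 6 pools that share array, scaling and RNA amplification, and no test was made of them.

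Of 11212 genes compared in the same way, Abcb1b (0.911), Fam161a (0.887), Slc3a2 (0.847), Cyp11a1 (0.821) and Cp (0.819) were most like Star. Fermt3 (0.902), Snx22 (0.896), Afap1l2 (0.875), Clca3a1 (0.874) and Cdc25c (0.873) were most like Cyp17a1, whose pattern rests on a few high arrays.

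The array given apart, AMH 50 at 12 h of replicate 3, differed from its pool's vehicle array in opposite directions among these genes. Star read 24.7, 101 and 158 in its 3 probe sets (1418728_at, 1418729_at and 1449201_at), log2 differences of -4.60, -2.81 and -3.31. Hsd3b1 read 191 against 2934 in vehicle, Cyp17a1 160 against 737, and Hsd17b1 103 against 118. Akr1c18 read 2899.6 against 44.0, bright Cyp11a1 4373 against 2361, and Fdx1 4098 against 2756. With this array in the fit, AMH 50 at 12 h gave a Star difference of -1.30 and an Akr1c18 difference of 2.05, with 0 members called by limma.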

How the data were processed

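RNA of 18 follicle cultures was amplified from 5 ng and hybridised to 1 Affymetrix array each. The deposited table holds the authors' signal intensity of each probe set on a linear scale, made with MAS5 per the submitters' processing notes (version not given in the sources used here). The values were used as deposited, and log2(signal + 16) was computed from the deposited intensities without further normalization. The array annotation gave 1 symbol to 34945 probe sets, several to 932 and none to 9160. Titles and sources put the AMH samples of the earlier time at 12 h, while their description gives 24 h, and 12 h was used.

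The 22518 probe sets whose mean lay above the 50th percentile entered linear models in limma 3.58.1 under R 4.3.3, with lmFit and trended eBayes. Doses were compared within pools, with the pool as a block, on 17 arrays without the array given apart (7 residual degrees of freedom). Times were compared on the 6 vehicle arrays without a block (4 residual degrees of freedom). Tests were two-sided, with Benjamini-Hochberg adjustment over all probe sets tested and a threshold of 0.05. Same-numbered vehicle arrays of the 2 times deviated together (correlations 0.206 to 0.317), though the labels do not pair them. Arrays of 1 pool, which the labels do pair, correlated at 0.0672 to 0.495.

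All 10 members are named, with the brightest probe set standing for a gene. Of the other pathway genes, those with the 2 smallest p values of a comparison are named, as are Nr5a1, Fshr and Scarb1. The likeness lists take the 5 highest correlations. The members and lists were chosen with earlier results of these data known. Alternatives changed the block, the constant added (1 or 50), normalization, filter, variance trend, array weights and arrays included. The scripts were tested on simulated data. Gene positions and promoters are RefSeq's (GRCm38.p6). Figures used matplotlib 3.10.9 in python 3.11.15. The number of arrays limits the precision, and some genes are not reported here.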

Additional observations from a re-analysis of the deposited data

Results flagged for a closer look

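With AMH 50, every pool was higher than vehicle at 24 h and both pools compared were lower at 12 h in 3 probe sets. The difference between the 2 times was 1.07 for Star 1418728_at, 0.55 for Star 1449201_at and 1.06 for Cyp11a1 1439947_at (log2, limma), each with an adjusted p of 0.999, so the times were not shown to differ.

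On the array given apart, AMH 50 at 12 h of replicate 3, which entered none of the main comparisons, 5 probe sets read above every vehicle array of 12 h. Cyp11a1 read 73.6 (1439947_at), 4373 (1448804_at) and 70.3 (1457604_x_at), Akr1c18 read 2900 (2899.6 as deposited) and Fdx1 read 4098.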

How the results depend on the processing

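No result changed sign while past the threshold. Of 1707 settings compared for single member probe sets, 1566 kept the sign, 141 did not and 7 passed the threshold. Leaving out a pool or vehicle array gave 0 to 1 members called for AMH 200 at 12 h and for time. It gave 0 to 17 of all probe sets for AMH 200 against AMH 50 at 12 h, 0 to 225 for AMH 200 at 12 h, 0 to 2 for its average, 0 to 3 for the AMH 50 difference between times, 0 to 4 for AMH 50 at 12 h and 0 to 1 for its average. For time it gave 0 to 461, namely 35 without replicate 2 of 12 h, 461 without replicate 3 of 12 h, 1 without replicate 1 of 24 h and 0 without replicate 2 or 3 of 24 h. With array weights, 1 member and 513 of all were called for AMH 200 against AMH 50 at 24 h, 1 and 8 for AMH 200 at 24 h, 1 and 774 for time, and of all 1025 for AMH 50 at 24 h and 235 for its average. The weights of the dose fits, from 0.141 to 26.3, did not reach the convergence tolerance. Those of the time fit were estimated apart on the 6 vehicle arrays. With the 24 h arrays alone 1 of all was called for AMH 50, and without the variance trend 1 for its average. For time, 619 were called with the pool as a random block over 17 arrays, 65 above the 75th percentile, 60 without a filter and 144 with 1 added. Median centring moved the median of all probe sets by -0.10 for time and 0.14 for AMH 50 at 12 h. Fits on 16 arrays, also without AMH 200 at 12 h of replicate 3, were added after the data were seen and called 0 members.

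With the replicate number as a block in the time comparison, 2 members (Hsd17b1 and Cyp11a1 1439947_at) and 629 of all probe sets passed, 2.79%. Without the block in the dose comparisons 0 members and 0 of all were called, as with it.

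Precision is limited by 2 or 3 pools a group and by dim signals of Cyp17a1 and Akr1c18, whose differences depend on the constant added.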
